A study of Tachysurus fulvidraco x Tachysurus vachelli with 6 samples.

Results

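The gene LOC113634729, which the annotation describes as tribbles homolog 1-like, is 1 of the 2451 complete gene rows of the table, and its level in fish skin is described here library by library. It was picked by name with earlier results of these libraries known, as 1 of the 4 genes called lower after transport, so its own difference between the groups is given as a description with no test. The skin came from juvenile hybrid yellow catfish (Tachysurus fulvidraco♀ × P. vachellii♂), taken on the left flank just posterior to the dorsal fin. The transported fish had been through 16 h of simulated transport, which meant sealing into water-filled bags topped with oxygen, on a shaker and after a fast, and 3 libraries were made from them. Another 3 libraries came from control fish that stayed untreated in the recirculating system. Shaking, confinement, the oxygen and the change in water cannot be told apart in this design. The same holds for the fast, since the methods do not say whether the control fish were fasted. The paper calls the libraries biological replicates in its results, but the sources used here do not say whether each held 1 fish or a pool.

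Tribbles proteins are pseudokinases. They keep the fold of a protein kinase but have little or no catalytic activity, and they act as scaffolds. In mammals, TRIB1 binds the ubiquitin ligase COP1 and brings it to the transcription factor C/EBP alpha, which is then degraded. It also binds MEK1, a kinase of the ERK branch of MAP kinase signalling, and it is known in humans and mice for its part in liver lipid metabolism and in the formation of macrophages and eosinophils. What the gene does in the skin of catfish was not examined here, and its name rests on the annotation alone.

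In the table the gene lies on scaffold NW_020848162.1 from 280860 to 288127 on the minus strand, a span of 7268 bases with exons and introns together, and the sources used here name no genome build. None of the other 95 genes that the table holds on this scaffold overlaps it. The table gives it 8 Gene Ontology terms: liver development, protein kinase activity, ATP binding, nucleus, protein phosphorylation, mitogen-activated protein kinase kinase binding, positive regulation of proteasomal ubiquitin-dependent protein catabolic process, and regulation of MAP kinase activity. It is the only tribbles gene in the table.

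The transcript was read deeply in every library. The transport libraries 1, 2 and 3 held 1166, 1303 and 1635 reads of the gene, against 2245, 2076 and 2526 reads in control libraries 1, 2 and 3. The exact Poisson 95% interval, which covers counting error only, was 1100 to 1235 reads in transport library 1 and 2428 to 2626 reads in control library 3, the libraries with the fewest and the most reads. Counting error was therefore small beside the gap between the groups.

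Per transcript length and mapped fragments, the gene was lower in every transport library. Its FPKM was 7.69, 7.87 and 8.997 in transport libraries 1, 2 and 3, against 12.1, 13.98 and 15.6 in control libraries 1, 2 and 3. The groups did not overlap, and the lowest control library was 1.35 times the highest transport library. Before any scaling between libraries, 3.7% of the 1620 genes tested below lay wholly under the controls in this way, and 24.1% lay wholly above them. The choice of LOC113634729 rested on a call of this same contrast. Its lack of overlap was thus favoured in advance and is a description. The mean FPKM was 8.19 ± 0.708 after transport and 13.9 ± 1.75 in control skin (SD, n = 3 each), so the transport mean was 58.9% of the control mean. The order of the 6 libraries ran from transport library 1 up to control library 3, and transport libraries 1 and 2, the lowest pair, differed by less than the SD of their group, as did control libraries 2 and 3, the highest pair. The coefficient of variation was 8.64% in transport skin and 12.6% in control skin. In bulk skin, fewer cells that make the transcript and less transcript per cell cannot be told apart.

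**Figure D1:**
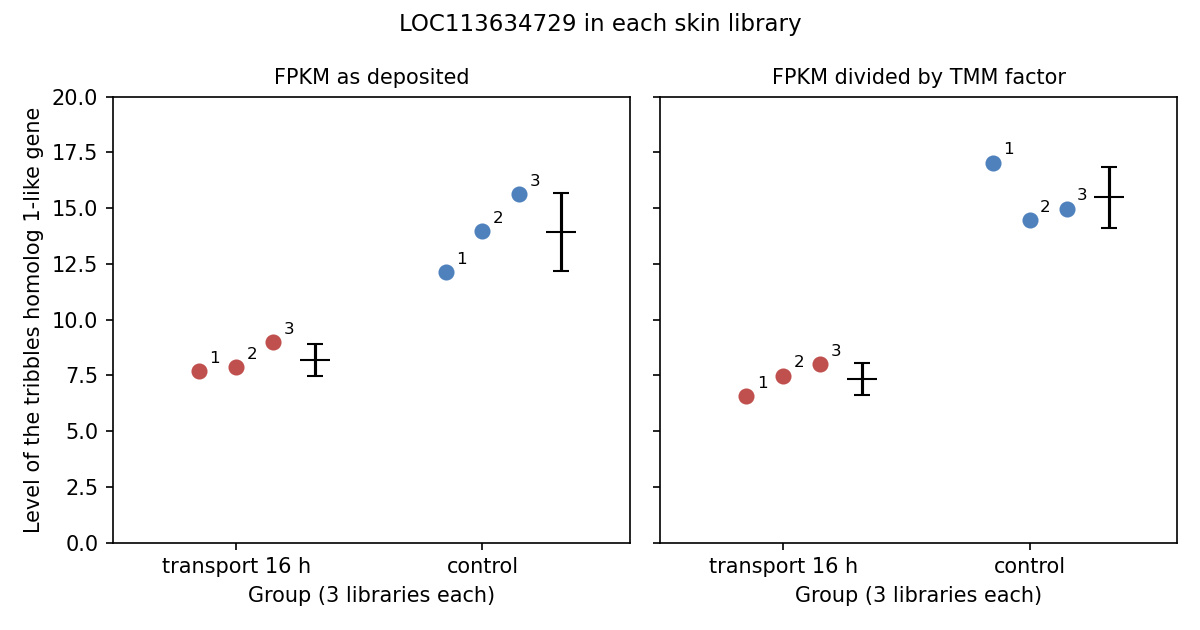
Level of LOC113634729 in each library, as deposited FPKM on the left and after division by the TMM factor of the library on the right. Points are libraries with their replicate number, and black bars are the group mean ± SD (n = 3). The transport libraries lie at 7.69 to 8.997 FPKM and the control libraries at 12.1 to 15.6 FPKM, and the scaling turns control library 1 from the lowest into the highest control.

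Scaling between libraries changed the size of this difference and the order of the control libraries. The TMM factor, which edgeR takes from the bulk of the genes to bring libraries onto a common level, was 1.17, 1.05 and 1.13 in transport libraries 1, 2 and 3 and 0.712, 0.968 and 1.04 in control libraries 1, 2 and 3. After division by it, the FPKM was 6.55, 7.48 and 7.995 in transport libraries 1, 2 and 3, against 17.0, 14.4 and 14.97 in control libraries 1, 2 and 3. Control library 1 was thus the lowest control as deposited and the highest control once scaled, while the transport libraries kept their order. The groups stood further apart, with the lowest control 1.81 times the highest transport library, and the transport mean was 47.4% of the control mean. The spread within the groups became 9.98% in transport skin and 8.82% in control skin.

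The fit to the counts over all genes gave the same size as the scaled FPKM. The log2 fold change was -1.09 ± 0.14 (SE) with TMM factors and -0.77 ± 0.21 (SE) with mapped reads alone. The factors shifted the log2 fold change of all genes by -0.30 at the median. Relative to the median of all tested genes, the gene stood at -1.07 with the factors and -1.04 without them. Of the 1620 genes tested, which had a mean FPKM of at least 0.5, 115 had a lower log2 fold change with the factors and 113 without them, so the place of the gene among all genes hardly moved. The call at an adjusted p under 0.05 that led to its choice was kept in 5 of 13 alternative settings, and among the 6 fits that left out 1 library it was lost in 5 and kept without control replicate 3. The log2 fold change itself lay between -1.15 and -0.73 over all settings.

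The gene was moderately abundant and steady between libraries of a group. In transport libraries 1, 2 and 3 it ranked at places 688, 622 and 588 of the 2451 genes by FPKM, against places 287, 351 and 356 in control libraries 1, 2 and 3. Put as a share, 23.9% to 28.0% of the genes were above it after transport and 11.7% to 14.5% in control skin, without any scaling between libraries. Among the 328 tested genes whose mean FPKM was within 1.5-fold of its own, 4.88% had a smaller SD within groups on the log2(FPKM + 0.5) scale, where its SD was 0.149 and the median of those genes was 0.339. The call that led to its choice weighs a difference against the spread within groups. A small SD was thus favoured in advance, and its rank here is a description. These SDs were taken without scaling between libraries. Of the same 328 genes, 9 had a lower log2 fold change, and their median log2 fold change was 0.0041.

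**Figure D2:**
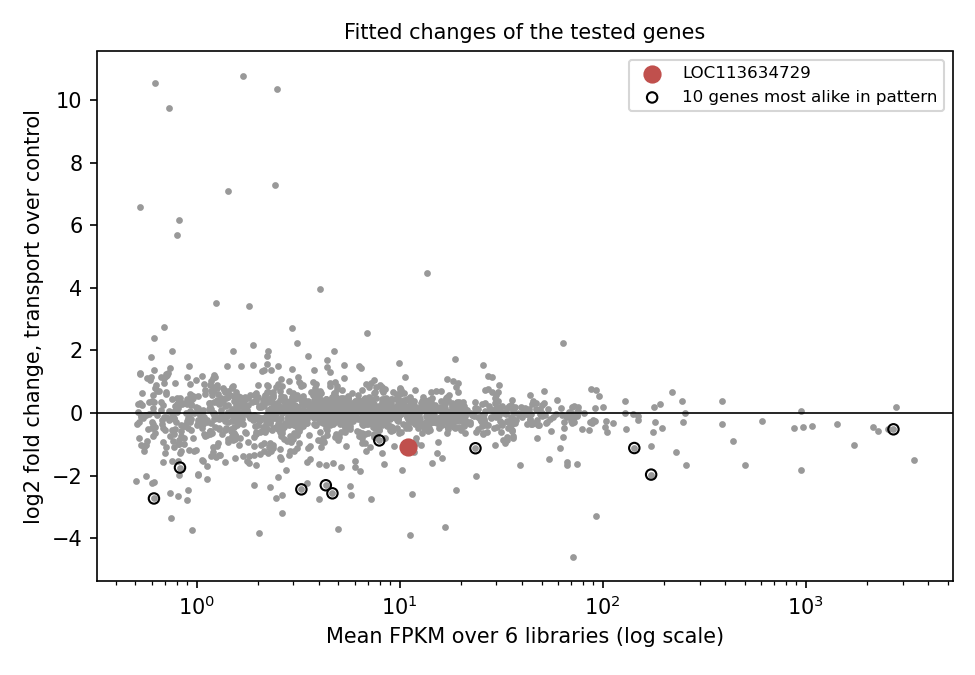
Log2 fold change (transport over control, edgeR fit with TMM factors) against mean FPKM over the 6 libraries on a log axis, for the tested genes. The filled point is LOC113634729 at -1.09, below most genes of like abundance, and the open circles are the 10 genes most like it in library pattern.

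The level and pattern of its neighbours on the scaffold are given for comparison, with no test against the gene. On the lower-coordinate side, LOC113634655 (protein FAM84B-like) ends 23.8 kb away and had an FPKM of 0.09 to 0.418 in transport libraries and 0.075 to 0.282 in control libraries, which is under the abundance filter. Beyond it, fam91a1 (protein FAM91A1) had 4.60, 3.18 and 5.20 FPKM in transport libraries 1, 2 and 3, against 2.075, 3.07 and 4.845 FPKM in control libraries 1, 2 and 3. The groups overlapped, and its log2 fold change was 0.11 ± 0.24 (SE, with adjusted p = 0.856 by edgeR). The kelch-like protein 38 gene LOC113634737, the third on this side, had a log2 fold change of -2.16 with a standard error of 1.42 (adjusted p = 0.466 in edgeR's test).
On the other side, fam92a (protein FAM92A) begins 18.2 kb away and had a log2 fold change of -0.61 ± 0.36 (SE, with adjusted p = 0.430 by edgeR), and triqk had -0.32 ± 0.24 (SE, with adjusted p = 0.532 by edgeR). The third, LOC113634750, had no reads in any library. Of the 4 tested neighbours 0 passed in edgeR's test, also at an unadjusted p under 0.05 and in DESeq2, and LOC113634729 was the 1 gene called among the 73 tested on this scaffold, on the contrast that chose it. The median log2 fold change of the other 72 was -0.0034. Over all 1620 tested genes, edgeR called 0.617% in either direction, and DESeq2 4.38% higher and 5.12% lower. An unadjusted p under 0.05 by edgeR was held by 7.72% upward and 9.14% downward. These counts on the scaffold are too small to set apart from those shares.

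Genes with a similar library pattern were ranked by Pearson's r of log2(FPKM + 0.5) with LOC113634729 over the 6 libraries. These values describe the likeness of patterns and carry no p, since the 6 libraries fall into 2 groups and a gene that differs between the groups scores high whatever it does within them. Before any scaling between libraries, the r of the 1619 other tested genes had a median of -0.287, with 30.2% above 0. With FPKM divided by TMM factors, 49.0% were above 0. Without that scaling, 10 genes reached an r over 0.9. In those 10, the FPKM of all transport libraries was under that of all controls, as in 3.7% of all tested genes. Because the likeness to a gene that is lower after transport chose them, that count is a description.

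Nearest of all was LOC113634433, protein Wnt-6-like, a secreted ligand of Wnt signalling (r = 0.99). Its FPKM was 0.113, 0.113 and 0.340 in transport libraries 1, 2 and 3, against 0.721, 1.208 and 1.204 in control libraries 1, 2 and 3. With the deviations from the group means alone, its r was 0.917. Its mean FPKM was 0.189 in transport skin, under the abundance filter of 0.5, and 1.04 in control skin. The gene thus passed the filter only through control skin, and its transport values lay near the floor. It lies on the same scaffold, NW_020848156.1, as the second gene, LOC113634430 (r = 0.962). That gene is described as desmin-like, desmin being the intermediate filament protein of muscle. It had 0.992, 1.61 and 2.00 FPKM in transport libraries 1, 2 and 3, against 3.98, 5.45 and 13.98 FPKM in control libraries 1, 2 and 3. Its libraries stood in the same order as those of the tribbles gene, which held for 5 of the other tested genes, while 2 stood in exactly the reverse order.

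The third was the notch 1-like gene LOC113634548 (r = 0.954), whose family encodes transmembrane receptors of cell fate signalling. It had 0.407, 0.448 and 0.482 FPKM in transport libraries 1, 2 and 3, against 0.922, 1.52 and 1.195 FPKM in control libraries 1, 2 and 3. Its mean was 0.446 FPKM in transport skin and 1.21 FPKM in control skin, so it too passed the abundance filter only through control skin. Within the groups its r was lower, at 0.568. Next came 4 genes of inflammation and innate immunity by their descriptions, and the share of such genes among all tested genes was not counted. Within the groups, their r was 0.822, 0.803, 0.470 and 0.796, in the order given below. With FPKM divided by TMM factors they ranked at places 18, 9, 15 and 68. The interleukin-1 beta-like gene LOC113635103 (r = 0.95), a cytokine gene, averaged 1.68 ± 0.888 FPKM in transport skin and 6.98 ± 3.42 FPKM in control skin (SD, n = 3 each). Its libraries had the same order as those of the tribbles gene. LOC113636435 (r = 0.948), whose description names a NACHT domain, leucine-rich repeats and a PYD domain as in protein 12 of the NLR family, averaged 17.0 ± 1.34 FPKM in transport skin and 30.3 ± 7.38 FPKM in control skin (SD, n = 3 each). The TNF receptor superfamily gene LOC113634305 (r = 0.930) averaged 1.19 ± 0.61 FPKM in transport skin and 5.37 ± 1.97 FPKM in control skin (SD, n = 3 each). The gene nfkbia (r = 0.918), which encodes the inhibitor that holds NF-kappa-B in the cytoplasm, averaged 79.7 ± 1.93 FPKM in transport skin and 267 ± 145 FPKM in control skin (SD, n = 3 each).
The spread of nfkbia in control skin was far wider than that of the tribbles gene.

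The last 3 of the 10 were rpl23, LOC113636173 and LOC113636152. The ribosomal protein gene rpl23 (r = 0.910) averaged 2541 ± 36.4 FPKM in transport skin and 2870 ± 92.1 FPKM in control skin (SD, n = 3 each). Its log2 ratio of mean FPKM was -0.18, against -0.76 for the tribbles gene, so a high r here went with a small difference. LOC113636173, described as actin filament-associated protein 1-like 1 (r = 0.909), averaged 6.37 ± 0.126 FPKM in transport skin and 9.51 ± 2.08 FPKM in control skin (SD, n = 3 each). LOC113636152 is described as TSC22 domain family protein 3-like, and its mammalian counterpart, known as GILZ, is induced by glucocorticoids (r = 0.902). It had 117, 106 and 92.5 FPKM in transport libraries 1, 2 and 3, against 165, 162 and 217 FPKM in control libraries 1, 2 and 3. Within the groups its r was 0.245 and that of rpl23 was 0.105, lower than those of the other 8.

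**Figure D3:**
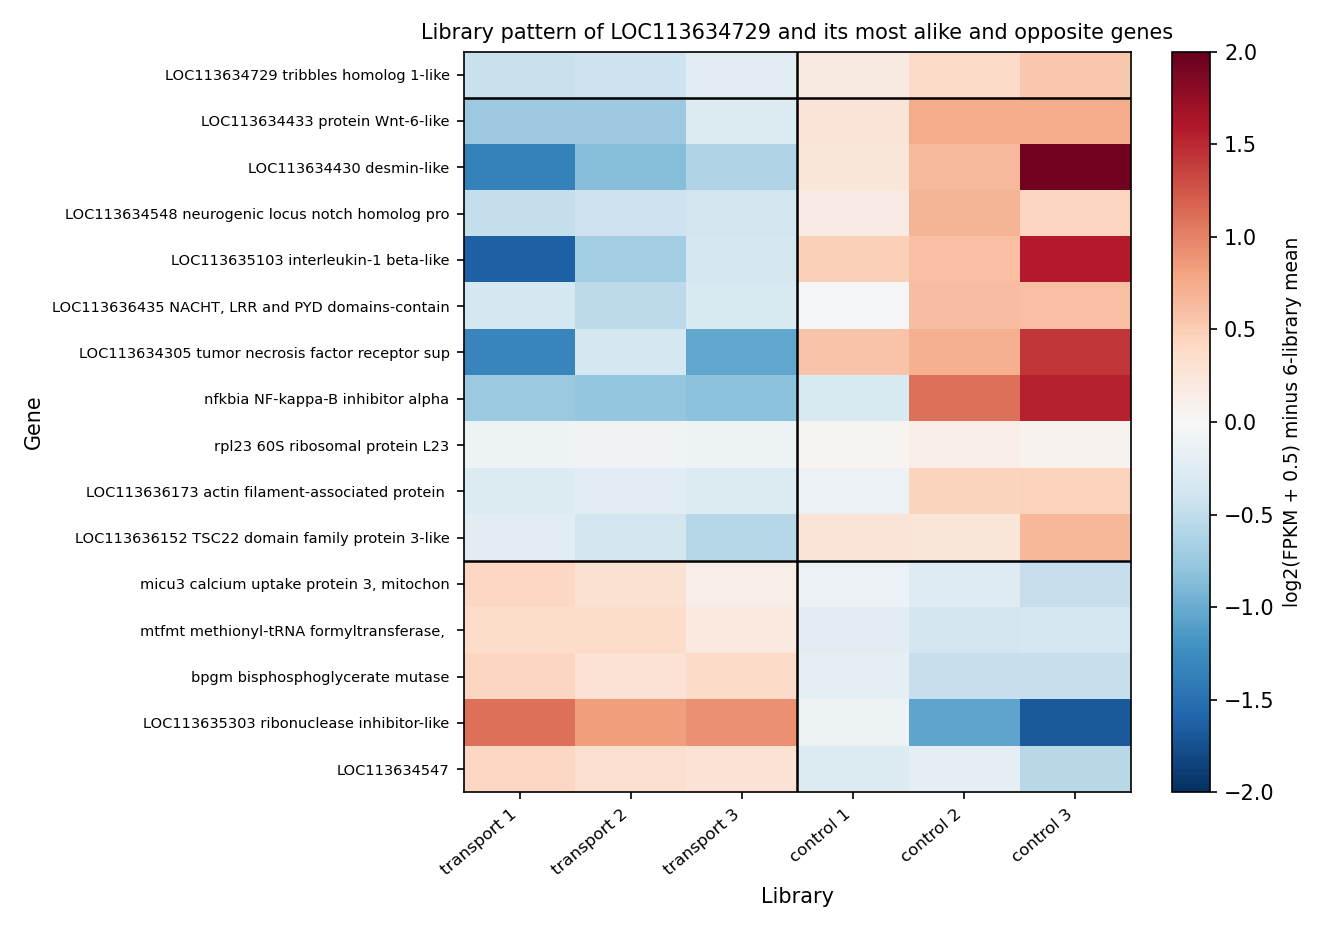
Log2(FPKM + 0.5) minus the 6-library mean of each gene, in colour, for LOC113634729 (top row), the 10 genes most like it and the 5 most opposite, with the transport libraries left of the control libraries. The 10 genes are low in all transport libraries and differ in how the 3 control libraries compare, while rpl23 is nearly flat.

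The 5 genes of most opposite pattern were higher in every transport library than in every control library, as were 24.1% of all tested genes before any scaling between libraries. The calcium uptake regulator gene micu3 (r = -0.990) had 5.52, 5.09 and 4.41 FPKM in transport libraries 1, 2 and 3, against 3.66, 3.29 and 2.81 FPKM in control libraries 1, 2 and 3. The other 4 were mtfmt (r = -0.989), which formylates the initiator methionyl-tRNA of mitochondria, bpgm (r = -0.973), an enzyme that makes bisphosphoglycerate in red blood cells, the ribonuclease inhibitor-like LOC113635303 (r = -0.971) and LOC113634547 (r = -0.967), which has no protein description. In the edgeR fit with TMM factors, their log2 fold changes ran from 0.25 for micu3 to 2.00 for LOC113635303, with adjusted p of 0.430 to 0.672. Their r rested on the scaling. With FPKM divided by TMM factors, the r of these 5 lay between -0.746 and -0.393, and the r of the 10 most alike genes between 0.859 and 0.967.

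Which genes ranked as most alike also depended on the scaling. With FPKM divided by TMM factors, 4 of the 10 stayed among the 10 most alike: LOC113634433, LOC113636173, the notch 1-like LOC113634548 and LOC113636435. The highest r was then 0.971, for LOC113634488 (mitotic-spindle organizing protein 2-like), and 39 genes had an r over 0.9.

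The genes through which mammalian tribbles proteins act were sparsely held by the table. In 11 lists, of the tribbles family, the COP1 ligase, the C/EBP family, the ERK branch, the JNK and p38 branches, MAP kinase phosphatases and feedback, immediate early genes, PI3K-AKT-FOXO, the ATF4 stress response, lipogenesis and glucocorticoid targets, 19 genes other than LOC113634729 were found and 18 were tested. By edgeR, with p adjusted over every tested gene and a threshold of 0.05, 1 of the 18 rose and 0 fell, against 0.37% of all tested genes higher and 0.247% lower. Before adjustment, 2 rising and 3 falling estimates had a p under 0.05, against 7.72% of all tested genes upward and 9.14% downward. DESeq2 called 2 higher and 2 lower of the 18, against 4.38% of all tested genes higher and 5.12% lower by this tool, and limma 1 higher and 0 lower, against 0.617% and 0.123%. The median log2 fold change of the 18 was -0.28, beside -0.0204 for all genes, and with mapped reads alone it was 0.0371, beside 0.27 for all genes. The sign of 5 of the 18 differed between these scalings: LOC113636822, atf4, cop1, dusp7 and foxo4. The lists took genes with a symbol by that symbol alone, which passed over 4 tested genes whose descriptions match: dusp13, dusp14, rps6ka6 and scap. With these added after their values were seen, edgeR still called 1 higher and 0 lower of 22, and DESeq2 called 2 higher and 3 lower.

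Of the direct partners, cop1 itself was in the table, while the lists matched 0 genes of the C/EBP family and none of MEK1 or ERK. The E3 ubiquitin ligase gene cop1 had 8.74 ± 0.342 FPKM in transport skin and 7.35 ± 1.80 FPKM in control skin (SD, n = 3 each). Its log2 fold change was -0.0444 ± 0.12 (SE, with adjusted p = 0.876 by edgeR), or 0.25 with mapped reads alone. The gene cul4b, a cullin scaffold of ligases of this kind, had a log2 fold change of 0.018 ± 0.13 (SE, with adjusted p = 0.956 by edgeR). Both estimates lay within 1 standard error of 0, but the sign of that of cop1 depended on the scaling.

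In the MAP kinase branches, 0 of the 7 listed genes passed in edgeR's test, with an unadjusted p under 0.05 for 1, which DESeq2 called and limma did not. The edgeR shares over all tested genes were 0.617% called in either direction, and 7.72% upward and 9.14% downward at an unadjusted p under 0.05. DESeq2 called 4.38% of them higher and 5.12% lower. In the ERK branch, the log2 fold change was 0.14 for LOC113634161 (ribosomal protein S6 kinase alpha-4-like), 0.0612 for LOC113635277 (son of sevenless homolog 2-like, an exchange factor of Ras) and -0.32 for LOC113636822 (GTPase HRas), with adjusted p of 0.587, 0.8745 and 0.56 in edgeR's test. The single gene of the JNK branch, LOC113635472, is described as mitogen-activated protein kinase kinase kinase 11-like, a kinase upstream of JNK in mammals. It had 3.84, 3.21 and 3.52 FPKM in transport libraries 1, 2 and 3, against 1.00, 1.67 and 1.92 FPKM in control libraries 1, 2 and 3. The groups did not overlap, as in 24.1% of all tested genes in this direction before any scaling between libraries. The log2 fold change was 0.92 ± 0.14 (SE), just outside the threshold with an adjusted p of 0.0525 in edgeR's test.
The phosphatase gene dusp7, which acts on ERK, had a log2 fold change of -0.22 ± 0.20 (SE, with adjusted p = 0.596 by edgeR). The dual specificity phosphatase 13-like genes LOC113634783 and LOC113634784 had -1.82 and -1.17, with standard errors of 0.76 and 0.74. Control skin spread widely in LOC113634783, whose FPKM was 4.82, 6.36 and 4.94 in transport libraries 1, 2 and 3, against 11.03, 31.5 and 3.20 in control libraries 1, 2 and 3. The gene dusp13 lies beside these copies and is not in the list. It had 1.63, 3.38 and 1.87 FPKM in transport libraries 1, 2 and 3, against 9.69, 15.6 and 2.02 FPKM in control libraries 1, 2 and 3. The groups overlapped through control library 3, and the log2 fold change was -2.34 ± 0.80 (SE, with an unadjusted p of 0.0236 and adjusted p = 0.220 by edgeR), lower than that of either copy, with adjusted p = 0.0313 in DESeq2. The 3 neighbouring copies may share reads. Also outside the list, dusp14 had a log2 fold change of -0.27 ± 0.15 (SE, with adjusted p = 0.407 by edgeR). The gene rps6ka6 (ribosomal protein S6 kinase alpha-6), outside the ERK list, had 0.18 ± 0.13 (SE, with adjusted p = 0.531 by edgeR).

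**Figure D4:**
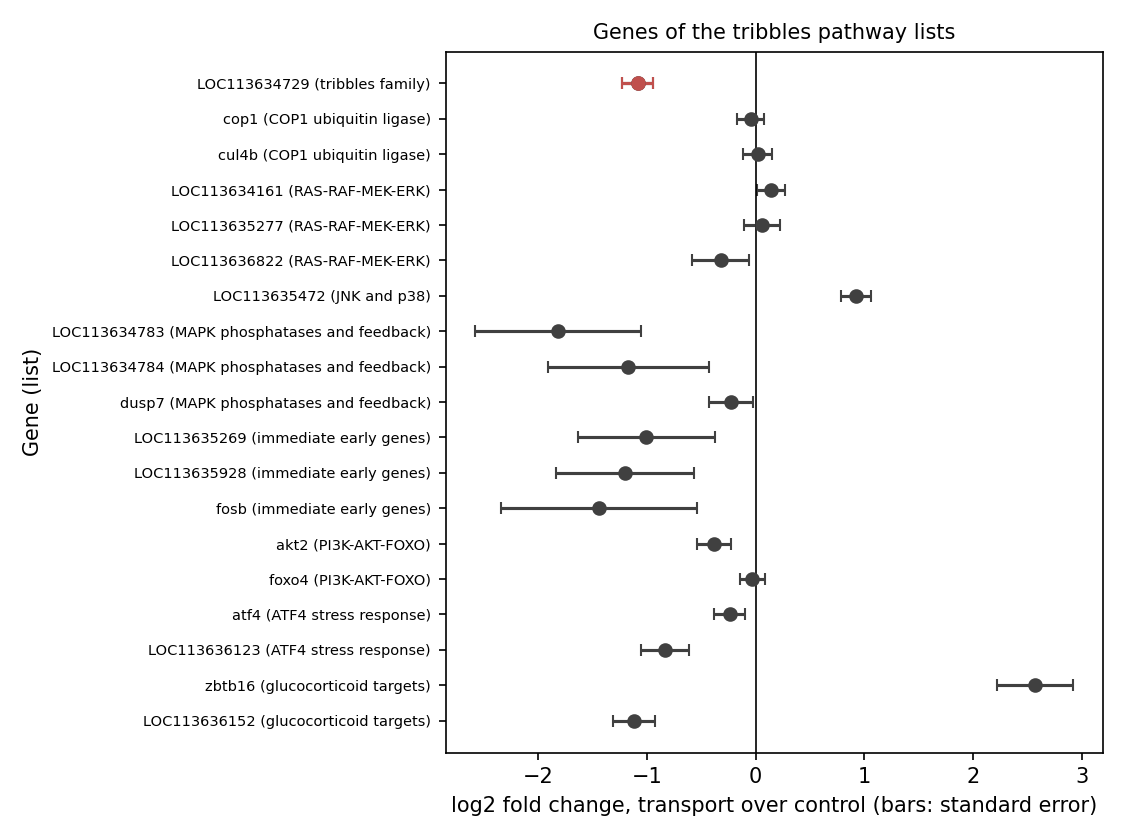
Log2 fold change (transport over control) with its standard error, from the edgeR fit with TMM factors, for LOC113634729 in red and the 18 tested genes of the pathway lists. The gene zbtb16 lies at 2.57 and the MAP kinase kinase kinase 11-like gene at 0.92, while cop1 and cul4b lie at 0 within their errors.

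The immediate early genes, transcription factor genes that respond to ERK and stress signals, were all highest in control library 1. The gene fosb, a member of the AP-1 family, had 10.2, 13.1 and 10.4 FPKM in transport libraries 1, 2 and 3, against 41.0, 19.15 and 3.16 FPKM in control libraries 1, 2 and 3. LOC113635928 (fos-related antigen 1-like) had 1.86, 2.65 and 2.33 FPKM in transport libraries 1, 2 and 3, against 6.72, 2.20 and 2.28 FPKM in control libraries 1, 2 and 3. LOC113635269, a nuclear receptor subfamily 4 gene, had 9.26, 11.8 and 10.6 FPKM in transport libraries 1, 2 and 3, against 27.6, 8.73 and 8.70 FPKM in control libraries 1, 2 and 3. For the tribbles gene, control library 1 was the lowest control as deposited and the highest once scaled. Their adjusted p was 0.378 to 0.445 in edgeR's test.

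Among genes of AKT and stress signalling, akt2, an AKT kinase gene, had a log2 fold change of -0.38 ± 0.16 (SE, with adjusted p = 0.29 by edgeR). The forkhead gene foxo4 had -0.0305 ± 0.11 (SE) and atf4, a transcription factor of the amino acid and stress response, had -0.24 ± 0.14 (SE). The sestrin-3-like gene LOC113636123 had 2.21 ± 0.504 FPKM in transport skin and 3.21 ± 0.966 FPKM in control skin (SD, n = 3 each), with a log2 fold change of -0.84 ± 0.22 (SE, with adjusted p = 0.168 by edgeR). DESeq2 called this gene lower, and limma did not. The acyl-CoA desaturase 1 gene, the single gene of the lipogenesis list, was under the abundance filter. Outside that list, scap (sterol regulatory element-binding protein cleavage-activating protein) had a log2 fold change of 0.28 ± 0.12 (SE, with adjusted p = 0.318 by edgeR). Its FPKM was higher in every transport library than in every control library, as in 24.1% of all tested genes before any scaling between libraries.

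The 2 glucocorticoid targets had estimates of opposite sign. Of these, 1 passed in edgeR's test and in limma, while DESeq2 called both. Over all tested genes, edgeR called 0.37% higher and 0.247% lower, limma 0.617% and 0.123%, and DESeq2 4.38% and 5.12%. The zinc finger repressor gene zbtb16, induced by glucocorticoids in mammals, rose after transport, with 12.2 ± 2.97 FPKM in transport skin and 1.595 ± 0.255 FPKM in control skin (SD, n = 3 each). Its log2 fold change was 2.57 ± 0.35 (SE, with adjusted p = 0.0376 by edgeR), and 2.93 (adjusted p = 0.0059) with mapped reads alone. The call was lost without control replicates 1 and 2 (adjusted p = 0.0735 and 0.127 in edgeR's test) and without transport replicates 1, 2 and 3 (0.210, 0.0943 and 0.227), and it was lost with a block for the replicate number (0.179). It was kept without control replicate 3 (0.0383). The TSC22 domain family protein 3-like gene LOC113636152 had a log2 fold change of -1.12 ± 0.19 (SE, with adjusted p = 0.0719 by edgeR, 0.0515 to 0.360 when 1 library was left out). Its groups did not overlap, as in 3.7% of all tested genes in this direction, and its log2 fold change was close to that of the tribbles gene.

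Of the 8 Gene Ontology terms of the tribbles gene, 6 were shared with other tested genes. Of 37 genes of protein kinase activity, 0 were called by edgeR, with an unadjusted p under 0.05 for 3 higher and 3 lower genes and a median log2 fold change of 0.086, while 4 were called by DESeq2 (2 in each direction) and 1 by limma, upward. The 36 genes of protein phosphorylation gave the same counts. The lowest p among these kinase genes was that of the MAP kinase kinase kinase 11-like gene, followed by LOC113635035 (rho-associated protein kinase 1-like, log2 fold change 1.97, adjusted p = 0.0904 in edgeR's test) and the smooth muscle myosin light chain kinase-like LOC113634552 (-1.35, adjusted p = 0.163). Of 106 genes of ATP binding, 0 rose and 1 fell, LOC113636435, beside an unadjusted p under 0.05 for 12 higher and 9 lower genes, while DESeq2 called 6 higher and 6 lower. Of 266 nuclear genes, 2 rose, which were zbtb16 and LOC113635862 (described as a PPAR gamma coactivator 1-beta-like gene, log2 fold change 1.69), and 1 fell, the notch 1-like gene. Before adjustment, 17 higher and 26 lower nuclear genes had a p under 0.05 by edgeR, and DESeq2 called 10 higher and 13 lower. Beside the counts of each term stand the shares over the 1620 tested genes. An unadjusted p under 0.05 by edgeR went with a rise in 7.72% and a fall in 9.14%. The calls of DESeq2 made up 4.38% upward and 5.12% downward, and those of limma 0.617% upward and 0.123% downward. The median log2 fold change of the nuclear genes was -0.0624.
For liver development, 0 of 8 genes were called, with an unadjusted p under 0.05 for 0 higher and 2 lower genes and with 1 called lower by DESeq2, and for positive regulation of proteasomal ubiquitin-dependent protein catabolic process 0 of 4, with an unadjusted p under 0.05 for 1, arih2 (log2 fold change -0.64, adjusted p = 0.252 in edgeR's test), and 0 called by DESeq2. Lists and terms together held 375 tested genes, of which 4 were called, or 1.07%, against 0.617% of all genes tested in either direction. The 4 calls became 1 without control replicate 1, 0 without control replicate 2 or without any of the 3 transport replicates, and 15 without control replicate 3.

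The levels of cell type marker genes differed between libraries, and bulk FPKM does not show whether cell numbers did. Of the marker genes of other cell types, the skeletal muscle list had 9 genes in the table, of which 8 were tested, with a summed FPKM of 2441 to 4439 in transport libraries and 2258 to 11063 in control libraries. The sum was highest in control library 1 and lowest in control library 3, but its members did not share this order. In control library 1 most of it came from LOC113636033 (myosin regulatory light chain 2-like), at 9075 FPKM. LOC113636534 and LOC113635959 were highest in control library 2, at 2238 and 1029 FPKM. The list took LOC genes by description, and not all are described as skeletal muscle genes. The descriptions of LOC113636534 and LOC113635959 name cardiac muscle, and that of LOC113634552 names smooth muscle. The tribbles gene had its lowest control FPKM in control library 1 and its highest in control library 3. Once divided by the TMM factor, its level was highest in control library 1. The part of muscle in its level was not tested. The macrophage and granulocyte list had 4 genes, with a summed FPKM of 8.55 to 12.96 in transport libraries and 6.22 to 10.2 in control libraries, nearly all of it from spi1, the gene of the myeloid factor PU.1. Its log2 fold change was 0.19 ± 0.24 (SE, with adjusted p = 0.715 by edgeR), and the 3 macrophage mannose receptor 1-like genes were each below 1 FPKM in every library. The lymphocyte list had 8 genes, 1 of them at 0 in every library, and a summed FPKM of 7.22 to 16.7 in transport libraries and 4.01 to 13.02 in control libraries. Of its 2 tested genes, the CD22-like LOC113636359 had 6.26, 0.0469 and 3.81 FPKM in transport libraries 1, 2 and 3 and was at 0 in all 3 control libraries (unadjusted p = 0.0140 and adjusted p = 0.195 by edgeR), while the CD2-like LOC113634083 had a log2 fold change of 0.16 ± 0.43 (SE, with adjusted p = 0.875 by edgeR).
The pigment cell genes tyrp1 and mlph summed to 1.55 to 3.22 FPKM in transport libraries and 3.61 to 7.98 FPKM in control libraries. The groups did not overlap in the sum or in tyrp1, a pattern held in this direction by 3.7% of all tested genes. In mlph they overlapped, with 1.73 FPKM in transport library 2 and 1.54 FPKM in control library 3. The part of these genes in the level of the tribbles gene was not tested. Epidermal genes were present, with a summed FPKM of 65.6 to 84.4 in transport libraries and 51.5 to 66.2 in control libraries over 4 genes. The estimates of its members differed in sign. The envoplakin gene evpl had 47.7, 30.4 and 41.7 FPKM in transport libraries 1, 2 and 3, against 3.93, 11.9 and 19.7 FPKM in control libraries 1, 2 and 3 (adjusted p = 0.173 by edgeR), and the B-cadherin-like LOC113634238 had 34.1, 28.2 and 29.9 FPKM in transport libraries 1, 2 and 3, against 42.7, 39.4 and 42.67 FPKM in control libraries 1, 2 and 3 (adjusted p = 0.168 by edgeR). Neither overlapped between the groups before any scaling between libraries. Of all tested genes, 24.1% lay wholly above the controls, as evpl did, and 3.7% wholly below, as LOC113634238 did. The 2 mucous cell genes summed to 97.5 to 181 FPKM in transport libraries and 61.2 to 204 FPKM in control libraries, nearly all of it from agr2. The mucin-2-like LOC113635236 had 8.59, 0.347 and 5.66 FPKM in transport libraries 1, 2 and 3, against 0.0384, 0 and 0.0223 FPKM in control libraries 1, 2 and 3 (adjusted p = 0.101 by edgeR). DESeq2 called evpl, LOC113635236 and LOC113636359 higher and LOC113634238 lower. It also called 1 pigment cell gene and 2 genes of the skeletal muscle list lower. Of all tested genes, it called 4.38% higher and 5.12% lower. The part of these cell types in the level of the tribbles gene was not tested. The dermis and red blood cell lists held 0 genes of the table.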

How the data were processed

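Skin mRNA was sequenced in 3 transport and 3 control libraries. Per the study's methods, the authors cleaned reads with Cutadapt, mapped them with HISAT and estimated transcripts with StringTie, and the sources used here name neither versions nor build nor strandedness. Those methods name a human reference, whereas the scaffolds and descriptions in the table belong to Tachysurus fulvidraco. Positions are those of the table. The deposited table holds raw read counts made by the authors and their FPKM values, which are scaled to transcript length and mapped fragments. Of its 2452 rows, 1 was left out as incomplete. Another 12 value columns name samples that are not mapped here and stayed unused. The libraries held 3632651 to 4487002 counts, which is 12.0% to 12.5% of the mapped reads stated for them. The table is thus a part of the genes, and the stated mapped reads served as library sizes. Pairs of libraries within a group had a mean chi-square of 41.9 to 637 per gene, so none was a duplicate.

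Genes at or above a mean FPKM of 0.5, 1620 in all, were fitted with edgeR 4.0.16 (R 4.3.3, quasi-likelihood test, TMM factors, condition as the only term, Benjamini-Hochberg adjustment). The test was checked on simulated counts of transport against control over 1620 genes, with 35 of 100 genes recovered at a simulated log2 change of 1, 93 of 100 at 2, and 1 unchanged gene called. All libraries were simulated with the same dispersion trend, and changed genes were drawn only above a minimum mean count. Real pairs had a mean chi-square per gene of 325 to 637 in control and 41.9 to 163 in transport libraries. The simulation did not check the test under such an unequal spread. Alternatives were DESeq2 1.42.0, limma 3.58.1 on log2(FPKM + 0.5), no abundance filter, other scalings and library sizes, a block for the replicate number and leaving out each library. The p-values measure the spread between these libraries. Likeness of pattern was Pearson's r of log2(FPKM + 0.5). The text names the gene, the 10 most alike and 5 most opposite genes, its 3 neighbours on either side, and, of each pathway list, members called or else up to 3 with the smallest p, however large. The most alike gene after scaling, LOC113634488, single marker genes, and dusp13, dusp14, rps6ka6 and scap were named after their values were seen. The gene and the lists were chosen with earlier results of these data known, and LOC genes entered lists by description, which can be wrong.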

Additional observations from a re-analysis of the deposited data

How the results depend on the processing

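The log2 fold change of LOC113634729 was negative in all 13 alternatives. The gene was chosen on this contrast, so this sign was favoured in advance. Its call was kept in 5 of the 13 and lost in 8. The log2 fold change was -0.77 without TMM factors and -0.73 in limma on log2(FPKM + 0.5), where the deposited FPKM carry no such factors. It lay between -1.15 and -0.99 when 1 library was left out. Over all genes edgeR called 6 higher and 4 lower, without TMM factors 11 and 0 (with an unadjusted p under 0.05 for 66 lower genes), DESeq2 71 and 83, and limma 10 and 2. Leaving out 1 library gave 0 to 30 higher and 0 to 35 lower, both highest without control replicate 3. With a replicate block edgeR called 0 higher and 0 lower (105 and 110 at an unadjusted p under 0.05). The sources used here do not say whether the numbers pair the libraries. Deviations from the group means correlated at -0.0902 to 0.0847 for same-numbered libraries and at -0.157 to 0.12 for others. With 3 libraries per group, these values cannot settle whether a pairing exists. Of the genes of the lists and terms, 4 were called by edgeR, 36 by DESeq2, 0 with the replicate block (53 at an unadjusted p under 0.05) and 0 to 15 when 1 library was left out. Of the 10 genes most like LOC113634729, 4 stayed among the nearest 10 with TMM-scaled log2 counts in place of FPKM, 6 were among the 16 nearest (with ties) by Spearman's rho, 9 and 10 stayed with pseudocounts of 1 and 0.1, and 3 to 7 when 1 library was left out, the fewest without control replicate 3. With 3 libraries per group, differences smaller than these spreads were not detectable.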
